A study of Rattus norvegicus with 9 samples.

Results

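AS-tDR-007227 and AS-tDR-007228 are 2 of the 530 tRNA-derived small RNA fragments counted in rat brain tissue around the right globus pallidus, 21 days after surgery. They were chosen by name, for their consecutive identifiers and for lower levels after an intracerebral haemorrhage than after a sham operation. The tag counts and TPM values of these same libraries picked them, so their difference between haemorrhage and sham is given as a description, with no test. Both fragments were listed above 0 in all 9 libraries and passed the filter on low counts.

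All rats were male Sprague-Dawley animals, and each group had 3 libraries. The ICH + BYHWD rats had an intracerebral haemorrhage (ICH), produced by 0.5 U of collagenase type VII in 2.5 µl of saline, and received Buyang Huanwu Decoction (BYHWD), a herbal formula of traditional Chinese medicine, at 4.36 g/kg by gavage once a day for 21 days. The ICH rats had the same collagenase injection without the decoction, and the labels mention no vehicle gavage for them. The sham rats had the same operation with 2.5 µl of saline alone. The labels do not say outright that each library came from a separate rat. The p-values compare a difference between groups with the variation between libraries, which may therefore be technical. The files hold only tRNA fragments, so the tissue could not be checked against marker genes.

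Transfer RNAs carry amino acids to the ribosome, and nucleases cut them into fragments that are stable enough to be sequenced. Under stress the ribonuclease angiogenin cuts the anticodon loop and leaves the longer tiRNAs, some of which hold back translation initiation, while shorter fragments (tRFs) come from either end or from precursor trailers and some of them bind Argonaute proteins. The files give each fragment only by its identifier, without a sequence, class or parent tRNA, so it is not known here to which of these kinds AS-tDR-007227 and AS-tDR-007228 belong, and no sequence is printed.

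Both fragments were of middling abundance. By mean TPM over the 9 libraries, AS-tDR-007228 ranked 144 and AS-tDR-007227 ranked 203 of 530. TPM here is the tag count divided by the library's total of tags and multiplied by 1000000, without a length term. AS-tDR-007227 lay between 239 and 880 TPM and AS-tDR-007228 between 405 and 1134 TPM, spans of 3.68-fold and 2.80-fold. The tags behind these values numbered 234 to 647 (AS-tDR-007227) and 397 to 852 (AS-tDR-007228), in libraries of 530827 to 1066616 tags. The lowest value listed above 0 in a library was 134 to 152 TPM. AS-tDR-007227 in ICH 2 was nearest to that limit, at 1.79 times the lowest value listed there, and AS-tDR-007228 never came closer than 3.03 times.

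AS-tDR-007227 was at 352, 239 and 403 TPM in ICH libraries 1, 2 and 3, against 880, 807 and 546 TPM in sham libraries 1, 2 and 3. All ICH libraries were below all sham libraries, and the nearest were ICH 3 and sham 3. Its mean was 331 ± 84.1 TPM in ICH against 744 ± 175 TPM in sham (SD, n = 3 each), 0.445 times the sham mean, and the fitted log2 fold change was -1.04. By rank of TPM within a library it stood between 254 and 296 in ICH, where 400 to 428 fragments were listed above 0. In sham it stood between 122 and 201, with 392 to 423 fragments listed above 0.

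AS-tDR-007228 was at 619, 405 and 513 TPM in ICH libraries 1, 2 and 3, against 1134, 1060 and 855 TPM in sham libraries 1, 2 and 3. Here too the highest ICH library was below the lowest sham library. Its mean was 512 ± 107 TPM in ICH against 1016 ± 144 TPM in sham (SD, n = 3 each), 0.504 times the sham mean, with a fitted log2 fold change of -0.83. Of 455 fragments that passed the low-count filter, 8.35% had every ICH library below every sham library in TPM, and 11.9% did after TMM scaling, the edgeR step that evens out the composition of libraries. Both fragments were in this share on both scales, but this is the contrast that picked them, so nothing is read from it. In bulk tissue, fewer cells of a type and less of a fragment per cell cannot be told apart.

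In ICH + BYHWD libraries 1, 2 and 3, AS-tDR-007227 was at 656, 531 and 524 TPM. Its mean of 570 ± 74.2 TPM (SD, n = 3) was 1.72 times the ICH mean and 0.766 times the sham mean. Every ICH + BYHWD library lay above every ICH library, whereas ICH + BYHWD 1 lay above sham 3, so the treated and sham libraries overlapped. AS-tDR-007228 was at 1066, 858 and 628 TPM in ICH + BYHWD libraries 1, 2 and 3, a mean of 851 ± 219 TPM (SD, n = 3). That was 1.66 times the ICH mean and 0.837 times the sham mean. Its lowest treated library, ICH + BYHWD 3 at 628 TPM, stood just above the highest ICH library, ICH 1 at 619 TPM, and their counting intervals overlapped (95% Wilson, 580 to 679 and 573 to 668 TPM).

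**Figure D1:**
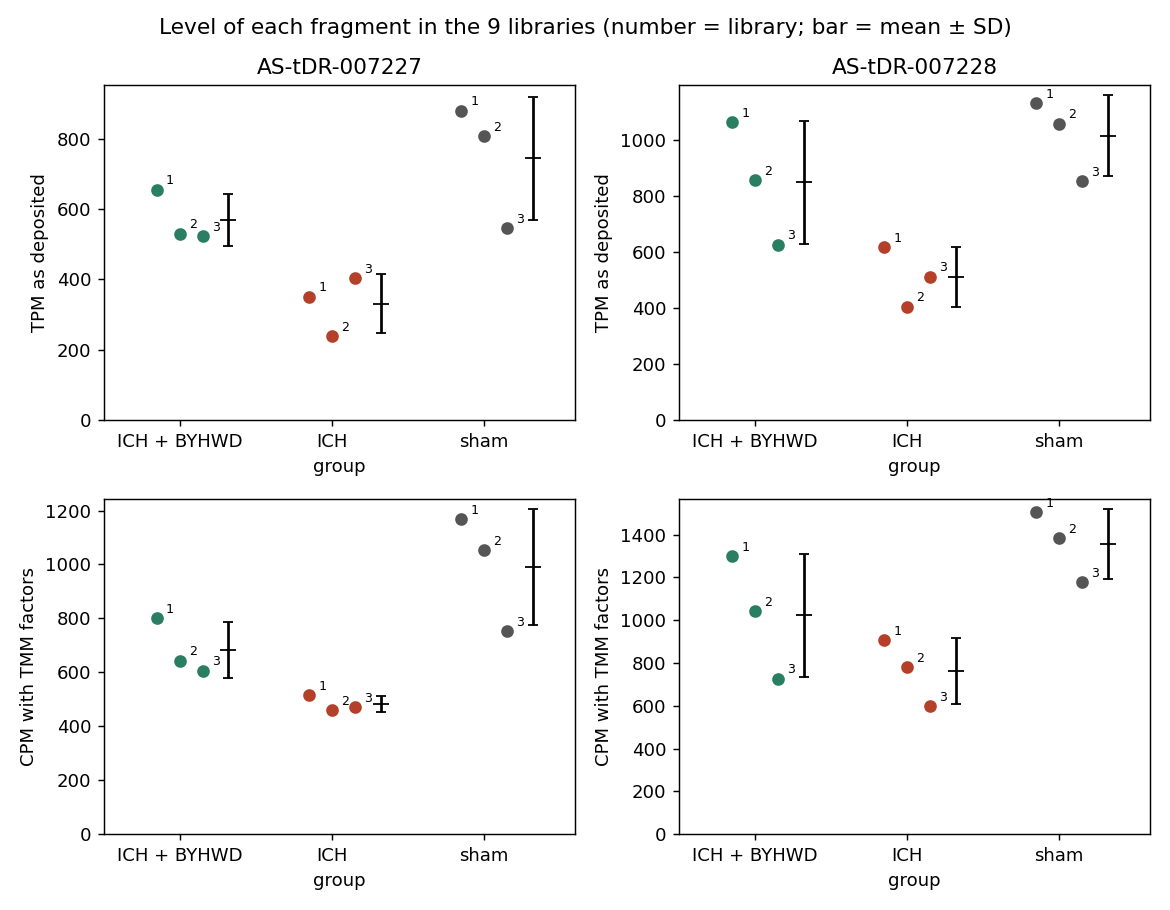
Level of AS-tDR-007227 (left) and AS-tDR-007228 (right) in each library, as deposited TPM (top) and as CPM with TMM factors (bottom), against group, with numbered points for libraries and bars for mean ± SD. ICH libraries sit below sham libraries in all panels, and AS-tDR-007228 overlaps between ICH + BYHWD and ICH only in the TMM panel, where ICH + BYHWD 3 is at 727 and ICH 1 at 908.

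Libraries of a group differed by more than counting error in some pairs and not in others. In ICH, the interval of AS-tDR-007227 in TPM was 318 to 389 in library 1 and 210 to 271 in library 2 (95% Wilson), and these did not overlap. In ICH + BYHWD its intervals in libraries 2 and 3, 479 to 588 and 481 to 571 TPM, did overlap. Intervals of this kind cover counting error only, since the reads carried no molecular identifiers as far as the labels say. Over the 3 groups, the pooled SD within groups of log2 TPM was 0.33 (AS-tDR-007227) and 0.31 (AS-tDR-007228), against a median of 0.39 over the 311 fragments above 0 in all libraries. Of those 311, 85 and 78 fragments had a smaller SD than AS-tDR-007227 and AS-tDR-007228. With TMM-scaled CPM the SD was 0.23 (AS-tDR-007227) and 0.32 (AS-tDR-007228), against a median of 0.29, so AS-tDR-007228 was then above the median, with 170 of the 311 smaller.

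The order of libraries within a group, by TPM, was alike for both fragments in some groups. In ICH + BYHWD and in sham, library 1 was highest, library 2 was next and library 3 was lowest for each fragment. In ICH, library 2 was lowest for each, but AS-tDR-007227 was highest in ICH 3 and AS-tDR-007228 in ICH 1. The low place of ICH 2 in TPM was not particular to the pair. It was shared by all neighbours and similar fragments named below except AS-tDR-009498. After TMM scaling AS-tDR-007228 was lowest in ICH 3, at 599 CPM against 779 CPM in ICH 2.

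The scale altered part of this picture. TMM factors, by which the depth of each library is multiplied, ran from 1.10 to 1.14 in ICH + BYHWD, were 0.856, 0.647 and 1.18 in ICH libraries 1, 2 and 3, and ran from 0.943 to 1.08 in sham. The CPM values here are tag counts over the sum of the tested fragments' tags, with that sum multiplied by the TMM factor and the result by 1000000. After this scaling AS-tDR-007227 was at 516, 459 and 470 CPM in ICH, a mean of 482 ± 30.0 CPM (SD, n = 3). The 3 ICH libraries thus drew together, and the low TPM value of ICH 2 no longer stood apart. The scaled mean of AS-tDR-007227 was 683 ± 103 CPM in ICH + BYHWD and 991 ± 214 CPM in sham (SD, n = 3 each).

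AS-tDR-007228 had 1300, 1041 and 727 CPM in ICH + BYHWD libraries 1, 2 and 3 after TMM scaling. It had 908, 779 and 599 CPM in ICH libraries 1, 2 and 3 and 1504, 1383 and 1179 CPM in sham libraries 1, 2 and 3. On this scale ICH + BYHWD 3 fell below ICH 1 and ICH 2, so the treated and untreated haemorrhage libraries overlapped. Every ICH library stayed below every sham library for both fragments. Higher TPM in every treated than in every ICH library was seen in 11.4% of the 455 fragments, both members among them. After TMM scaling the share was 10.8% and only AS-tDR-007227 of the pair was in it.

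The decoction comparison asked whether fragment levels in treated rats with a haemorrhage differed from those in untreated ones. The ICH libraries that entered the choice of the fragments also enter this comparison, and a choice of low ICH values favours a higher ratio here, so it is no independent test. For AS-tDR-007227 the log2 fold change of ICH + BYHWD over ICH was 0.50 (SE 0.19), with an adjusted p of 0.533 by the edgeR quasi-likelihood test and Benjamini-Hochberg adjustment over 455 fragments. For AS-tDR-007228 it was 0.42 (SE 0.25), with the same edgeR adjusted p of 0.533. Neither fragment passed the threshold of 0.05. edgeR called 0 of 455 fragments, which is 0%, limma-voom called 0 and DESeq2 called 10, without either member. At an unadjusted p under 0.05, edgeR had 20 higher fragments, which is 4.40%, and 10 lower ones. AS-tDR-007227 was among the 20, at an unadjusted edgeR p of 0.0316, and AS-tDR-007228 was not, at 0.128.

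The size of this difference depended on the scaling. With library totals and no scaling factors the log2 fold change of ICH + BYHWD over ICH was 0.78 (AS-tDR-007227) and 0.73 (AS-tDR-007228), while the median of all fragments was 0.18, against -0.09 with TMM factors. Relative to the other fragments, the position of the pair was similar: of the 455 fragments, 63 had a higher fold change than AS-tDR-007227 with TMM factors and 56 with library totals. The same count was 84 and 70 when taken from AS-tDR-007228. Among the 311 fragments listed in every library, 14 and 11 were higher than AS-tDR-007227, and 30 and 22 were higher than AS-tDR-007228. It also rested on single libraries for AS-tDR-007228, whose log2 fold change was 0.21 without ICH + BYHWD 1 and 0.28 without ICH 3.

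The comparison of treated rats with sham asked whether treated rats differed from sham, and it shares the sham libraries with the choice of the fragments. A choice of high sham values favours a lower ratio here, so this comparison is no independent test either. The log2 fold change of ICH + BYHWD over sham was -0.54 (SE 0.19) for AS-tDR-007227, with an edgeR adjusted p of 0.870. For AS-tDR-007228 it was -0.41 (SE 0.25), with an edgeR adjusted p of 0.997. Neither passed the threshold, and the groups overlapped in TPM for both, where 3.08% of the 455 fragments had every treated library below every sham library. edgeR called 0 fragments, or 0%, limma-voom called 0 and DESeq2 called 18, without either member. At an unadjusted p under 0.05 edgeR had 18 lower fragments, which is 3.96%, and 1 higher fragment. AS-tDR-007227 was among the 18, at an unadjusted edgeR p of 0.0244. Its log2 fold change was -0.27 without sham 1, and that of AS-tDR-007228 was -0.19 without sham 1 and -0.12 without ICH + BYHWD 3.

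**Figure D2:**
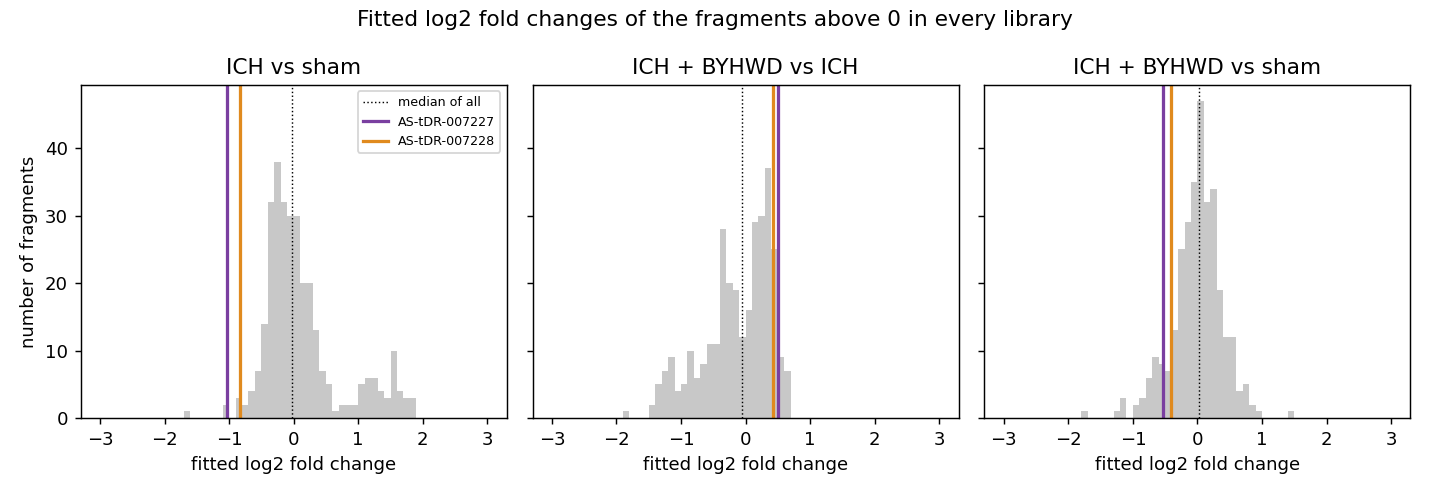
Number of fragments by fitted log2 fold change (edgeR, TMM factors) for the 311 fragments above 0 in all 9 libraries, in each of the 3 comparisons, with coloured lines at the 2 fragments and a dotted line at the median. For ICH over sham, the contrast that picked the pair, 2 of the 311 fragments are lower than AS-tDR-007227 and 4 are lower than AS-tDR-007228 (30 and 39 of all 455 tested), and for ICH + BYHWD over sham 30 and 39 of the 311 are lower (56 and 67 of the 455).

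The ratio of the fragments within a library needs no scaling and asked whether both fragments shifted in proportion. It was not the criterion of the choice. Both fragments were chosen for lower levels in ICH than in sham, however, so the ratio between these groups is not independent of that choice. AS-tDR-007228 had more tags than AS-tDR-007227 in all 9 libraries, with 1.20 to 1.76 tags per tag of AS-tDR-007227. The ratio was 1.63, 1.62 and 1.20 in ICH + BYHWD libraries 1, 2 and 3, and 1.76, 1.70 and 1.27 in ICH libraries 1, 2 and 3. In sham libraries 1, 2 and 3 it was 1.29, 1.31 and 1.57. Each group held a library at 1.31 or below and a library at 1.57 or above.

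The mean ratio was 1.48 ± 0.245 in ICH + BYHWD, 1.58 ± 0.264 in ICH and 1.39 ± 0.153 in sham (SD, n = 3 each). On the log2 scale ICH exceeded sham by 0.17, which was within the pooled spread of 0.21 between libraries (two-sided exact permutation p = 0.4, adjusted p = 0.75 over 3 comparisons). ICH + BYHWD differed from ICH by -0.09 (exact permutation p = 0.5, adjusted p = 0.75) and from sham by 0.08 (exact permutation p = 0.8, adjusted p = 0.8). With 3 libraries against 3, the smallest p this test can give is 0.1, so a change in proportion between groups could not have passed the threshold. Within groups, the exact binomial interval of the ratio was 1.07 to 1.35 in ICH + BYHWD 3, below that of 1.46 to 1.82 in ICH + BYHWD 1. In ICH 3 it was 1.11 to 1.47, below that of 1.55 to 2.00 in ICH 1.

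**Figure D3:**
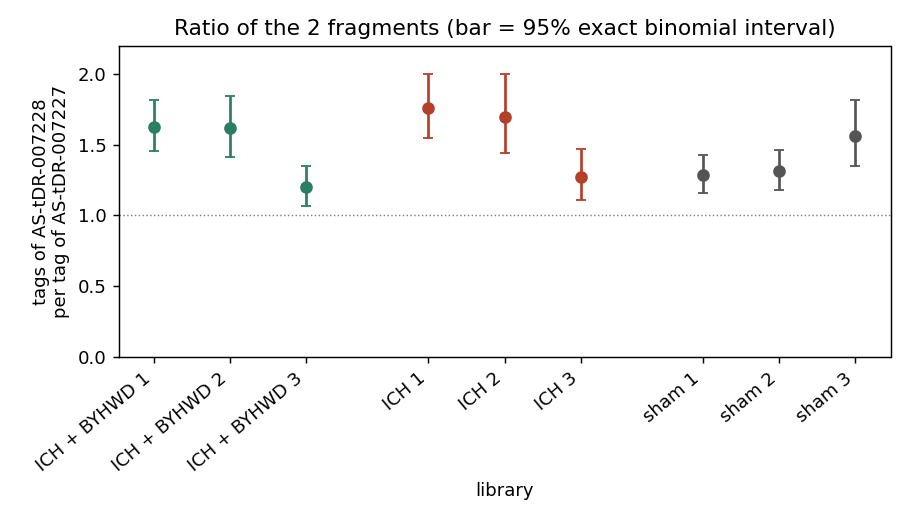
Tags of AS-tDR-007228 per tag of AS-tDR-007227 in each library, coloured by group, with 95% exact binomial intervals that cover counting error only and a dotted line at a ratio of 1. The ratio runs from 1.20 in ICH + BYHWD 3 to 1.76 in ICH 1, and the ranges of the 3 groups overlap.

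Together the pair held 1722, 1389 and 1151 TPM in ICH + BYHWD libraries 1, 2 and 3. The sum was 970, 644 and 916 TPM in ICH libraries 1, 2 and 3, against 2014, 1867 and 1402 TPM in sham libraries 1, 2 and 3. ICH sums were below all others in TPM. This follows from the levels of the 2 fragments given above, which were chosen for low ICH values, so nothing is read from it. The sum was not taken after TMM scaling. The smallest share of a library's tags was 0.0644%, in ICH 2, and the largest was 0.201%, in sham 1.

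The position of the fragments in the tables gave their neighbours. AS-tDR-007227 stood on 2 rows, each time directly followed by AS-tDR-007228, which stood on 3 rows and was directly followed by AS-tDR-000600 on all 3. All rows of a fragment repeat the same value, and the sources used here do not say what the repeats and the order mean. AS-tDR-000600 was far more abundant, at 5443, 4247 and 4701 TPM in ICH + BYHWD libraries 1, 2 and 3. It was at 3316, 2254 and 3780 TPM in ICH libraries 1, 2 and 3, against 5984, 5258 and 4235 TPM in sham libraries 1, 2 and 3. Its ICH libraries were below all its sham and all its treated libraries. Its fitted log2 fold change was -0.60 for ICH over sham and 0.34 for ICH + BYHWD over ICH, nearer to 0 than the values of the pair.

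The remaining row neighbours were not chosen for lower levels in ICH than in sham, as the pair was. Differences between them and the pair were not tested. AS-tDR-007043, on a row before AS-tDR-007227, averaged 393 ± 133 TPM in ICH against 421 ± 38.2 TPM in sham (SD, n = 3 each). AS-tDR-006963, on a row before AS-tDR-007228, averaged 590 ± 263 TPM in ICH against 691 ± 90.8 TPM in sham (SD, n = 3 each). For both the ICH libraries overlapped with those of sham. Their fitted log2 fold changes of ICH + BYHWD over ICH were 0.42 (AS-tDR-007043) and 0.61 (AS-tDR-006963). For both the treated and ICH libraries overlapped in TPM, and the edgeR adjusted p was 0.533 for each. A fitted fold change of this size for ICH + BYHWD over ICH was thus not particular to the pair. AS-tDR-009498, also on a row before AS-tDR-007227, was listed at 0 in ICH + BYHWD 2 and in sham 1 and 2, and at 891, 1236 and 360 TPM in ICH libraries 1, 2 and 3. It went the other way, with a log2 fold change of ICH + BYHWD over ICH of -1.44.

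The nearest identifiers in number were AS-tDR-007141 below and AS-tDR-007241 above. AS-tDR-007141 averaged 749 ± 322 TPM in ICH against 996 ± 133 TPM in sham (SD, n = 3 each). AS-tDR-007241 averaged 2603 ± 557 TPM in ICH against 3551 ± 637 TPM in sham (SD, n = 3 each). The ICH and sham libraries overlapped for both. The fitted log2 fold change of ICH + BYHWD over ICH was 0.49 for AS-tDR-007141 and 0.16 for AS-tDR-007241.

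Likeness of pattern was measured as Pearson r of log2 CPM with TMM factors over the 9 libraries, among 310 other fragments above 0 in all of them. These values share libraries and scaling, and the pair was chosen for a shared direction, so r is a description only. The fragments most like AS-tDR-007227 were AS-tDR-000600 (r = 0.98), AS-tDR-000393 (r = 0.94) and AS-tDR-007228 (r = 0.90). Those most like AS-tDR-007228 were AS-tDR-007227 (r = 0.90), AS-tDR-010096 (r = 0.89) and AS-tDR-008534 (r = 0.89). After the mean of each group was subtracted, r was 0.94 between AS-tDR-007227 and AS-tDR-000600 but 0.71 between AS-tDR-007227 and AS-tDR-007228. The row neighbour AS-tDR-000600 thus tracked AS-tDR-007227 more closely than the fragment with the next identifier did, also within groups. For AS-tDR-007228, r within groups was 0.89 with AS-tDR-008534 and 0.79 with AS-tDR-010096. Both were above its 0.71 with AS-tDR-007227, which was first only before group means were subtracted.

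The level of AS-tDR-000393 averaged 593 ± 37.0 TPM in ICH + BYHWD, 325 ± 57.1 TPM in ICH, and 606 ± 110 TPM in the sham libraries (SD, n = 3 each). In TPM its treated mean was close to its sham mean, whereas that of AS-tDR-007227 was 0.766 times the sham mean. With TMM factors the log2 fold change of ICH + BYHWD over sham was -0.18 for AS-tDR-000393 and -0.54 for AS-tDR-007227. This contrast between the fragments was not tested. AS-tDR-010096 averaged 389 ± 71.7 TPM in ICH + BYHWD, 248 ± 58.2 TPM in ICH, and 398 ± 91.7 TPM in the sham libraries (SD, n = 3 each). For AS-tDR-008534 the means were 1491 ± 454 TPM in ICH + BYHWD, 1040 ± 250 TPM in ICH, and 1820 ± 483 TPM in the sham libraries (SD, n = 3 each). Like AS-tDR-007228, it was lowest in library 3 of ICH + BYHWD among the treated libraries.

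**Figure D4:**
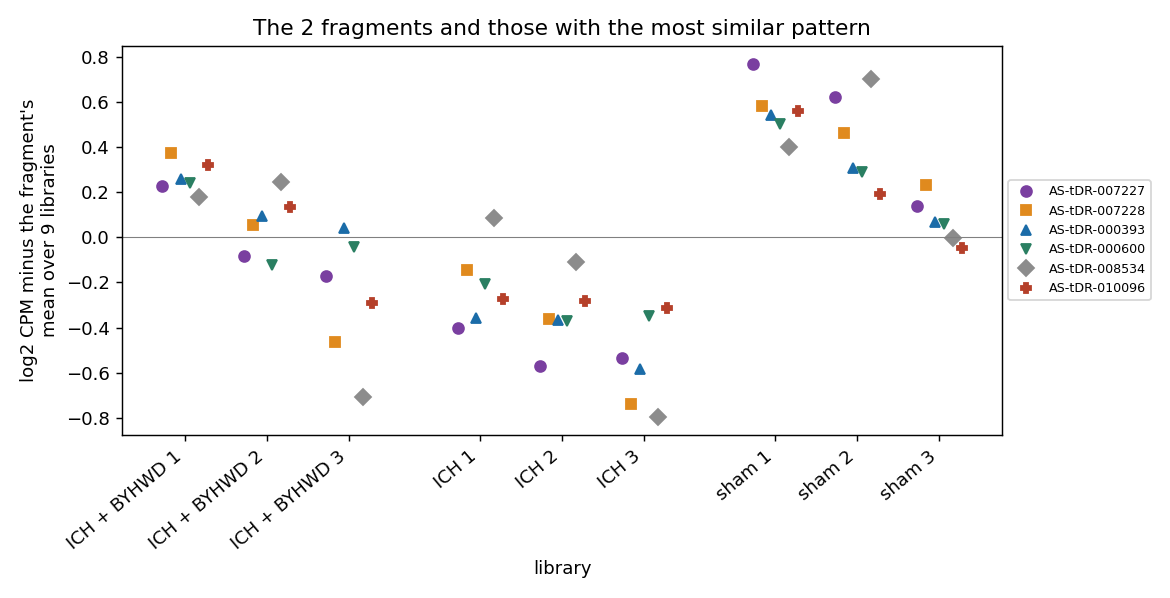
Log2 CPM (TMM factors) of the 2 fragments and of the 4 with the most similar pattern, minus each fragment's mean over the 9 libraries, by library. The points of AS-tDR-007227 and AS-tDR-000600 follow each other over most libraries (r = 0.98) but part between ICH + BYHWD 2 and 3, while AS-tDR-007228 and AS-tDR-008534 are lowest of the 9 libraries in ICH 3 and next lowest in ICH + BYHWD 3.

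The directions held under all 19 alternative settings tried for each fold change. For ICH over sham the log2 fold change lay between -1.31 and -0.98 (AS-tDR-007227) and between -1.08 and -0.68 (AS-tDR-007228). The value farthest from 0 for AS-tDR-007227 came without sham 3, the sham library with its lowest level. The value nearest to 0 for AS-tDR-007228 came without ICH 3.

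**Figure D5:**
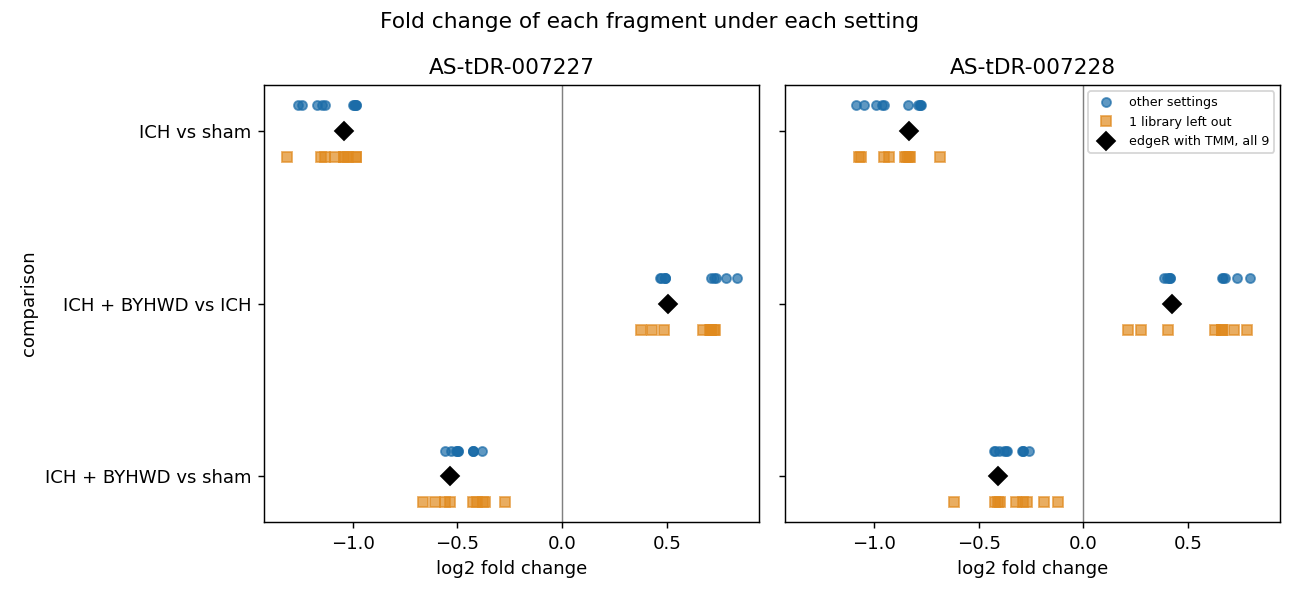
Fitted log2 fold change of each fragment in the 3 comparisons, with all 9 libraries and TMM factors (diamonds), under other scalings, filters and tools (circles) and with 1 library left out (squares). No point crosses 0, and AS-tDR-007228 comes nearest to it for ICH + BYHWD over sham, at -0.12.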

How the data were processed

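Per the labels' protocols, blocking tRNA modifications were removed first, and 9 small RNA libraries with inserts of 15 to 50 nt were sequenced for 50 cycles. The submitters' processing notes list FastQC, cutadapt, Novoalign 2.07.11 and the human build hg19. How fragments were annotated and counted is not stated there or in the labels and files. The authors deposited unnormalized whole-number tag counts. The deposited TPM column, treated here as another unit than strict TPM, equals the count over 1 library total per file times 1000000. Of 2122 rows per file, 1 row per fragment was kept. A 0 is read as below a listing minimum.

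Counts were tested with edgeR 4.0.16 (R 4.3.3): filterByExpr (minimum count 10), TMM factors, and a robust quasi-likelihood model of the 9 libraries in 3 groups, with p-values adjusted over 455 fragments. The SE follows from the F statistic. Alternatives were DESeq2 1.42.0, limma 3.58.1 (voom), other scalings and filters, and leaving out each library. The edgeR step was tested on simulated data. Within a group, the most similar libraries had a chi-square per degree of freedom of 67.3, so none was a copy of another in its group. Libraries of different groups were not compared in this way. The value does not show that libraries came from separate rats. Replicate numbers only name libraries in accession order. The fragments and lists were chosen with earlier results of these data known. The named fragments are the pair, their neighbours by identifier and by row, and the 3 most similar in pattern to each.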

Additional observations from a re-analysis of the deposited data

How the results depend on the processing

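The 6 log2 fold changes of the pair were recomputed under 18 planned settings and 1 added after seeing the data (library totals, no scaling factors). Of 114 values 0 reversed and 114 kept their call or, for ICH over sham, moved by less than the spread between libraries. The pair was chosen on these libraries, so this is no separate evidence. For ICH + BYHWD over ICH the values ran from 0.38 to 0.83 for AS-tDR-007227 and from 0.21 to 0.79 for AS-tDR-007228, and their lowest adjusted p values were 0.214 and 0.374. For ICH + BYHWD over sham they ran from -0.66 to -0.27 and from -0.62 to -0.12, with lowest adjusted p values of 0.218 and 0.705. Leaving out any 1 sham library, none of which is in that comparison, moved ICH + BYHWD over ICH to 0.71 for AS-tDR-007227. For AS-tDR-007228 it moved to 0.66. With all 9 libraries but no low-count filter the values were also 0.71 and 0.66, against 0.50 and 0.42 with the filter. The cause was not tested.

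The count of fragments past the threshold was 0 in each comparison. DESeq2 gave 25 for ICH over sham, 10 for ICH + BYHWD over ICH and 18 for ICH + BYHWD over sham, the cause of which was not tested. With 1 library left out, edgeR gave 0 to 44, 0 and 0 to 17 in the same order, and both highest counts came without sham 3. The difference between groups in the log2 ratio of the pair stayed positive for ICH minus sham, at 0.09 to 0.32 with 1 library left out. For ICH + BYHWD minus sham it also stayed positive, at 0.01 to 0.23. For ICH + BYHWD minus ICH this difference ran from -0.24 to 0.055 and was reversed, at 0.055, without ICH + BYHWD 3. No paired analysis was possible because titles of different groups have no number in common. Values near 134 to 152 TPM are limited by the listing minimum.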
